A study of Arabidopsis thaliana with 9 samples.

Results

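GLK1, GLK2, GNC and CGA1 encode nuclear transcription factors that turn on genes needed to build chloroplasts, and their mRNA levels were followed here in Arabidopsis thaliana seedlings of 3 light regimes. The 4 genes were taken by locus code, AT2G20570 (GLK1), AT5G44190 (GLK2), AT5G56860 (GNC) and AT4G26150 (CGA1, also called GNL), and all 4 were present among the 17680 genes of the deposited table. Steady state mRNA was measured by 3′-end RNA-seq in whole wild-type seedlings of the Columbia-0 accession, with 3 libraries in each of 3 groups. WLc seedlings grew for 2 days in white light that was never switched off, at 100 µE m-2 s-1. R1h seedlings spent 47 h in true darkness and then 1 h in red light of 10 µE m-2 s-1. D seedlings stayed in true darkness for 2 days. Before the dark period, D and R1h seeds received 3 h of white light to start germination and then a far-red pulse of 5 min, which returns activated phytochrome to its inactive form and gives true darkness its name. They were also kept for 4 days at 4 °C. The dark-grown seedlings had therefore seen white light as seeds. The sources name the cold step for WLc as well, but not clearly the far-red pulse.

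GLK1 and GLK2 (GOLDEN2-LIKE) belong to the GARP family of DNA-binding proteins. They activate nuclear genes of chlorophyll synthesis and of the light-harvesting antenna, and act redundantly in most green tissues. GNC and CGA1 are GATA zinc finger proteins with an LLM (leucine-leucine-methionine) domain. They promote greening and chloroplast division, and their transcripts are known to respond to light, nitrate and cytokinin and to be held down by gibberellin and by phytochrome-interacting factors (PIFs), which maintain dark-type growth and are removed once phytochrome has been activated by red light.

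Each level below is the authors' mean over the libraries of a group, in pseudo-counts, which are counts of reads that edgeR has brought to a shared library size. The table holds no value per library, so the differences have no replicate check here, and no SD or p-value can be given. The authors tested genes across their libraries with edgeR, using a 2-fold and an adjusted p-value threshold. The outcome of their test was not used here. Reads were counted in the last 500 bases of every transcript, so levels of different genes refer to a window of the same length. Whether the mRNA of each gene ends within that window was not checked, so genes may still be captured unequally. The longest RefSeq transcripts of the 4 genes span 1632 to 1790 bases, and 100% of the 50-base stretches in their last 500 bases occurred in no other gene. All levels summed to 12513884 pseudo-counts in WLc, 11990794 in R1h and 11442398 in D. The shared library size brings these sums close together, so they do not measure depth. On average, 1 read in 1 library added 0.327 to 0.331 pseudo-counts to a group mean. From this, exact 95% intervals (Poisson for a level, Clopper-Pearson for a ratio) were computed. Variation among plants and among libraries is not part of these intervals. At a level of 100 in both groups the interval of a ratio reached 0.23 on the log2 scale to either side, and at a level of 5 it reached 1.13. A gene is called higher or lower where log2(value + 1) differed by at least 2-fold, which shrinks the differences of genes with few reads. In whole seedlings, a change in the number of cells that use a gene and a change in mRNA per cell cannot be told apart.

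The upstream sequences of 3 of the genes are shown. GLK2 and CGA1 had nearly equal levels in both light groups, and GLK1 alone carried 1 of the motifs searched. GNC, whose sequence is not shown, also carried no motif. Both GLK1 and GNC differed between the light groups, but in opposite directions (ratio of WLc to R1h 3.06 for GLK1 and 0.416 for GNC). A link between motifs and levels was not tested. Each sequence shown is the 250 bases before the RefSeq gene start, 5′ to 3′ on the strand of the gene. It comes from the TAIR10.1 assembly, with the motif found in capitals. GLK1 lies on the plus strand (upstream bases chr2:8855052-8855301), GLK2 on the plus strand (chr5:17798012-17798261) and CGA1 on the plus strand (chr4:13252834-13253083).
GLK1: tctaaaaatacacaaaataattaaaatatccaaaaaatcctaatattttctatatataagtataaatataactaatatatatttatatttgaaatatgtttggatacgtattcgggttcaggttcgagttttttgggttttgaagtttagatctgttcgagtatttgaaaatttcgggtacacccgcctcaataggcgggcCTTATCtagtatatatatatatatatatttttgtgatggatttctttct
GLK2: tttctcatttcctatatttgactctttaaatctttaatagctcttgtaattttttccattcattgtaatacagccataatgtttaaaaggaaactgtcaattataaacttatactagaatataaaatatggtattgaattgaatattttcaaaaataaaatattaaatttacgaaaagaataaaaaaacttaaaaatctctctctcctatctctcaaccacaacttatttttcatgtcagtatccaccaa
CGA1: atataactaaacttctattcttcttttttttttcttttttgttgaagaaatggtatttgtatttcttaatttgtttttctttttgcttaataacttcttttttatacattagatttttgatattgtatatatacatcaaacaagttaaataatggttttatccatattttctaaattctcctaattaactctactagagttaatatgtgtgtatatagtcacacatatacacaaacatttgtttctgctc

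Both strands were searched for CACGTG (the G-box), CACATG (the core of the PIF binding element), GATAAG (bound by GATA factors) and CCAATC (described in promoters of GLK target genes). The one match in the 4 genes, which therefore overlapped no other motif, was a GATAAG on the opposite strand of GLK1, read as CTTATC, which began 49 bases before the gene start. GATAAG occurred in 12.7% of 17342 upstream windows of the same length, CACATG in 11.2%, CCAATC in 10.4% and CACGTG in 7.71%. The windows of GLK2, GNC and CGA1 held none of these letters, which says nothing about sites farther upstream or within the genes.

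After 1 h of red light, GLK2, GNC and CGA1 stood at least 2-fold above D, and GLK1 did not reach 2-fold. In continuous white light GLK1, GLK2 and CGA1 were at least 2-fold above D, and GNC was near its dark level. So 3 of the 4 genes were called higher in R1h, where 3.89% of all genes tested were called higher (6.35% in either direction), and 3 of the 4 in WLc, where 13.9% were (24.6% in either direction). The genes tested were the 17299 that reached 10 pseudo-counts in any group. The R1h and WLc comparisons share the D column. None was called lower than D in either group (2.46% of all genes in R1h and 10.7% in WLc). For each of these calls the whole counting interval of the ratio lay beyond 2-fold. The median difference of the 4 genes was 2.57 in WLc and 2.31 in R1h on the log2 scale, while the median over all genes tested was 0.02 and 0.00.

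**Figure D1:**
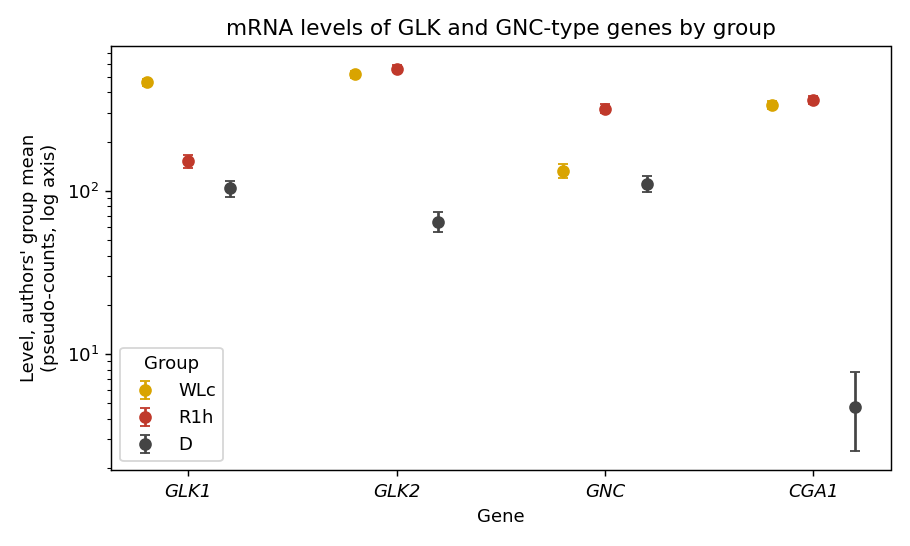
Levels of GLK1, GLK2, GNC and CGA1 (authors' group means in pseudo-counts, log axis) in WLc, R1h and D, with exact Poisson 95% counting intervals as bars. GLK2 and CGA1 stand at nearly the same height in WLc and R1h, GLK1 is highest in WLc at 462, GNC is highest in R1h at 318, and CGA1 in D is far below all other points at 4.69.

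CGA1 was barely detected in the dark. It had 335 pseudo-counts in WLc, 360.4 in R1h and 4.69 in D, the last resting on about 14 reads over the libraries of the group. In D 17105 of the 17680 genes had a higher level, whereas in R1h CGA1 lay at percentile 74.8 and in WLc at percentile 74.3 of all genes. The log2 difference from D was 5.99 in R1h, and only 8 of the 17299 genes tested had a larger one. The ratio of R1h to D was 76.9, with a wide counting interval of 46.1 to 143 because of the few reads in D. In WLc the log2 difference was 5.88, exceeded by 39 genes, with a ratio of 71.4 (counting interval 42.8 to 132). Between the light groups themselves, the ratio of WLc to R1h was 0.928, with an interval of 0.852 to 1.01 that includes 1.

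GLK2 also stood far above D in both light groups, from a higher dark level. It stood at 518 in WLc, 560.1 in R1h and 64.3 in D. The log2 difference from D was 3.10 in R1h, with 69 genes above it (0.399% of those tested), and 2.99 in WLc, with 441 genes above it (2.55%). The ratio to D was 8.71 in R1h (counting interval 7.5 to 10.2) and 8.05 in WLc (6.94 to 9.40). The ratio of WLc to R1h was 0.925, with an interval of 0.863 to 0.991. This small difference, -0.11 on the log2 scale, became 0.028 under quantile normalization, so the order of WLc and R1h is not fixed for GLK2.

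GLK1, its partner, was called higher in WLc and not in R1h. Its level was 462 in WLc, 151 in R1h and 103 in D. After 1 h of red light it was 1.46 times the dark level (counting interval 1.26 to 1.70, log2 difference 0.55), short of 2-fold, and 1714 genes had a larger difference. In WLc it was 4.48 times the dark level (3.96 to 5.08, log2 difference 2.15), and WLc stood 3.06 times above R1h (2.75 to 3.41, log2 difference 1.61). GLK1 was the only one of the 4 called higher in WLc against R1h, a comparison in which 12.0% of all genes were called higher, 10.0% lower and 22.0% in either direction.

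GNC had its highest level in R1h. It was at 132 in WLc, 318 in R1h and 109.7 in D. In R1h it was 2.90 times the dark level (counting interval 2.55 to 3.29, log2 difference 1.53), with 319 genes above it. In WLc it was 1.21 times the dark level (1.04 to 1.4, log2 difference 0.27), and 36.6% of all genes had a larger difference. The ratio of WLc to R1h was 0.416 (0.370 to 0.468, log2 difference -1.26), so GNC was called lower in WLc than in R1h, the only one of the 4.

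**Figure D2:**
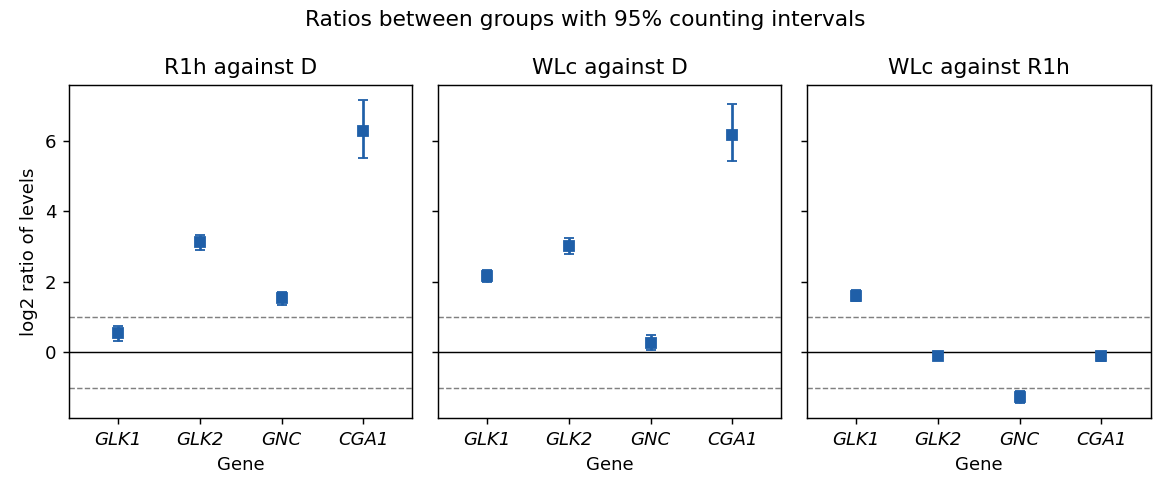
Plain log2 ratios of the group levels for each gene in the 3 comparisons, with 95% counting intervals as bars and 2-fold marked by dashed lines. GLK1 lies between the dashed lines in R1h against D and above them in the other panels, GNC lies above them in R1h against D and below them in WLc against R1h, and GLK2 and CGA1 lie near 0 in WLc against R1h.

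The order of the 4 levels differed between the groups. In WLc it was GLK2 (518), GLK1 (462), CGA1 (335) and GNC (132). In R1h it was GLK2 (560.1), CGA1 (360.4), GNC (318) and GLK1 (151). In D it was GNC (109.7), GLK1 (103), GLK2 (64.3) and CGA1 (4.69). Neighbours in these orders differed beyond counting error, except GNC and GLK1 in D, with a ratio of 1.06 (0.909 to 1.25). The closest other neighbours were GLK2 and GLK1 in WLc, with a ratio of 1.12 (1.04 to 1.20), and CGA1 and GNC in R1h, with 1.13 (1.04 to 1.24), differences that the unknown spread between libraries could exceed.

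Within each pair the balance differed between dark and light. The ratio of GLK2 to GLK1 was 1.12 in WLc, 3.71 in R1h (counting interval 3.35 to 4.13) and 0.624 in D (0.519 to 0.749). GLK2 thus made up 52.9% of the summed GLK level in WLc, 78.8% in R1h and 38.4% in D. The ratio of CGA1 to GNC was 2.53 in WLc (2.25 to 2.85), 1.13 in R1h and 0.0427 in D (0.0229 to 0.0720). CGA1 made up 71.7% of the summed level of both genes in WLc, 53.2% in R1h and 4.1% in D. These ratios are taken within a column, so a rescaling of whole columns leaves them as they are.

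**Figure D3:**
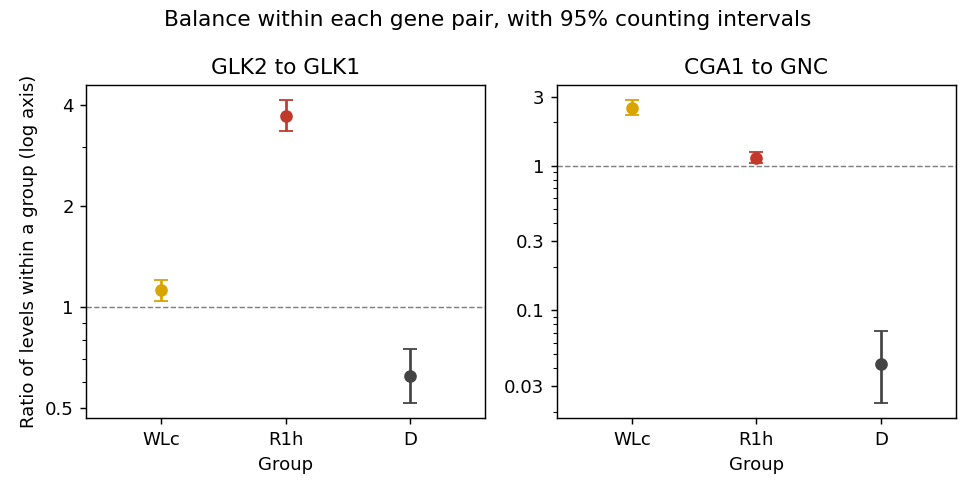
Ratio of GLK2 to GLK1 (left) and of CGA1 to GNC (right) within WLc, R1h and D on log axes, with 95% counting intervals as bars and equal levels marked by a dashed line. The GLK ratio is highest in R1h at 3.71 and the CGA1 to GNC ratio is highest in WLc at 2.53, while both ratios lie below 1 in D.

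The summed levels hid these shifts. The GLK pair summed to 980.0 pseudo-counts in WLc, 711 in R1h and 167 in D. The sum of GNC and CGA1 was 467 in WLc, 678 in R1h and 114 in D. All 4 genes together came to 1447 in WLc and 1389 in R1h, a ratio of 1.04 (counting interval 0.999 to 1.09), against 282 in D. So the total differed between the light groups by no more than counting error, while the share of the GLK pair was larger in WLc and that of the GATA pair larger in R1h.

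GATA15, GATA16, GATA17 and GATA17L are the other LLM-domain GATA genes, the closest relatives of GNC and CGA1. None of these 4 was called higher or lower in WLc, where 24.6% of all genes were called, or in R1h, where 6.35% were, so for so few genes a count of 0 is near the background. They had median log2 differences of 0.33 and 0.16. GATA15 stood at 524 in WLc, 420.1 in R1h and 425 in D, a dark level above those of all 4 chloroplast regulators. The largest difference among them was that of GATA17 in WLc (68.9 against 39.5 in D, log2 difference 0.79). GATA16 had 17.1 pseudo-counts in WLc, 22.5 in R1h and 13.9 in D.

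Among the 12 other GATA genes in the table, of 18 listed, 1 was called higher and 3 lower in WLc, and none higher and 2 lower in R1h. Over all genes tested, 13.9% were called higher and 10.7% lower in WLc, and 3.89% and 2.46% in R1h. For so few genes, the WLc counts are not far from these shares. GATA2, a promoter of light-grown development in the brassinosteroid pathway, had 80.9 in WLc, 124 in R1h and 416 in D (log2 differences from D of -2.35 and -1.73). GATA4, its close relative, had 867 in WLc, 553 in R1h and 2015 in D (-1.22 and -1.86). These were the 2 genes called lower in R1h, and with GATA11 (69.3 in WLc and 156 in D, -1.16) they were the 3 called lower in WLc. GATA7 was the one called higher in WLc, with 88.8 against 33.6 in D (1.38). The summed level of these 12 genes was 2270 in WLc, 1940 in R1h and 3818 in D, and most of the D sum came from GATA4 and GATA2. The median log2 difference of the 12 genes from D was 0.01 in WLc, with 7 of them above 0, and -0.26 in R1h, with 4 above 0.

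Of 13 genes for known upstream regulators of the 4 factors, 1 was called higher and 1 lower in R1h, where 6.35% of all genes were called in either direction, and 3 were called higher and 1 lower in WLc, where 24.6% were. The shares in the list were thus not far from those over all genes, and their median log2 difference was 0.29 in R1h and 0.19 in WLc. HY5, a bZIP factor that promotes greening, had 191 in WLc, 1784 in R1h and 162 in D, so that, like GNC, it was called higher in R1h (log2 difference 3.45) and stood close to its dark level in WLc (0.24). Of the PIF genes, PIF4 had 375 in WLc, 111 in R1h and 78.2 in D, and PIF5 had 301 in WLc, 101 in R1h and 52.0 in D, both called higher in WLc. PIF3 was lower, with 314 in WLc, 466 in R1h and 799 in D, and PIF1 stood between 146 and 178 in all groups. GAI, which encodes a DELLA repressor of gibberellin responses, was called lower in R1h (114 against 309 in D, -1.43), while its relative RGA had 730.2 in R1h against 1059 in D (-0.54). SOC1, a MADS factor that represses GNC and CGA1, had 80.8 in WLc, 10.4 in R1h and 6.25 in D (3.50 in WLc). ARF2, an auxin response factor that represses both GATA genes, had 2307 in WLc, 2019 in R1h and 2756 in D. The cytokinin response regulator genes ARR1, ARR10 and ARR12 had log2 differences between -0.43 and 0.93 from D, and GUN1, which acts in signalling from the plastid to the nucleus, had 0.52 in WLc and 0.34 in R1h.

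Of 5 genes for proteins that bind GLK factors, 1 was called higher and 1 lower in R1h, where 6.35% of all genes were called. None was called in WLc against D, where 24.6% of all genes were, so for so few genes a count of 0 is near the background. GBF1, a G-box binding factor, had 2735 in WLc, 2571 in R1h and 2781 in D. GBF3, a related factor, had 163 in WLc, 727 in R1h and 319 in D, called higher in R1h (log2 difference 1.19). NAC092 (ORE1), an ageing factor that binds GLK proteins and counteracts them, had 237 in WLc, 67.6 in R1h and 177 in D, called lower in R1h (-1.37). GBF2 and BIN2 stayed under 2-fold from D in both groups.

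**Figure D4:**
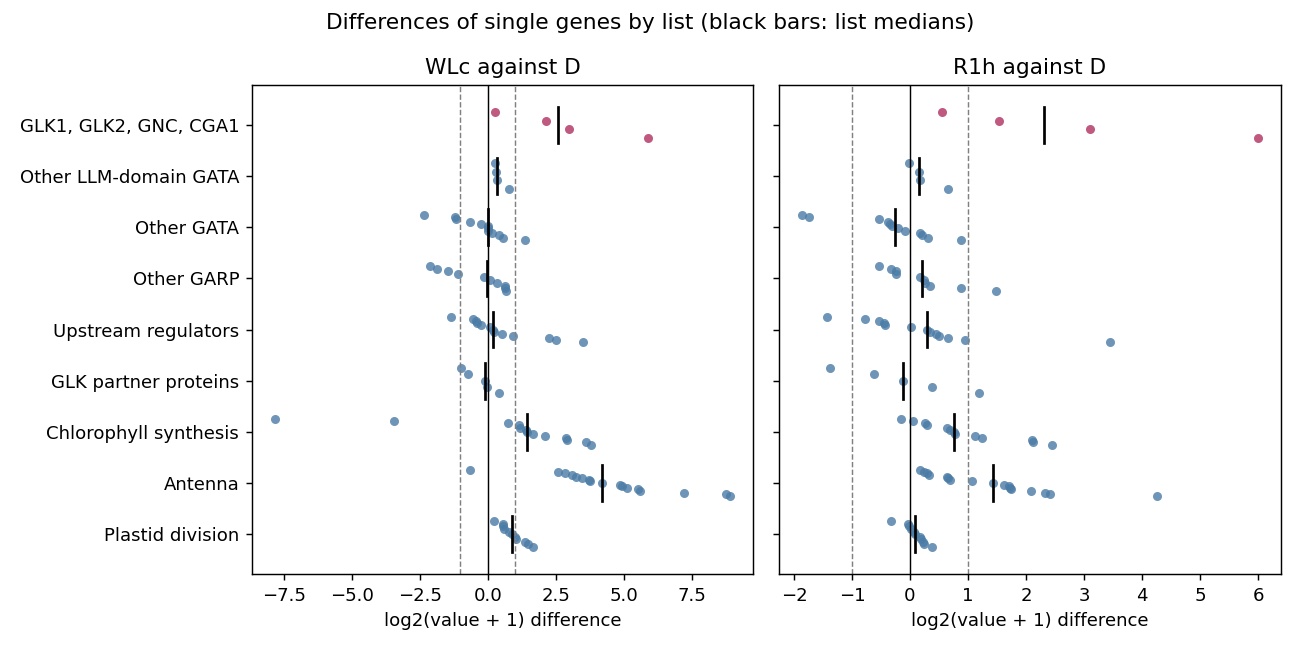
Differences in log2(value + 1) from D of single genes in WLc (left) and R1h (right), by list, with list medians as black bars and 2-fold as dashed lines. The 4 chloroplast regulators, in the top row, reach 5.88 and 5.99, while the 4 other LLM-domain GATA genes below them stay between the dashed lines, and nearly all antenna genes lie beyond 2-fold in WLc.

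Genes of the processes that the 4 factors act on were called in unequal numbers. Over all genes tested, 3.89% were called higher and 2.46% lower in R1h, and 13.9% higher and 10.7% lower in WLc. Of 17 antenna genes, 10 were called higher in R1h and 16 in WLc, none lower, with median log2 differences of 1.43 and 4.21. The exception in WLc was LHCB4.3, a minor antenna gene, which had 30.6 in WLc, 103 in R1h and 48.6 in D and so, as GNC did, stood highest in R1h. Of 13 chlorophyll synthesis genes, 5 were called higher in R1h (median 0.75) and 10 in WLc (median 1.46), where PORA and PORB were called lower. GUN4, an activator of magnesium chelatase, had 3085 in WLc, 2200 in R1h and 404 in D, and CHLM, a methyltransferase of the pathway, had 4724 in WLc, 1561 in R1h and 1503 in D.

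Of 11 plastid division genes, a process that GNC and CGA1 are known to promote, none was called in R1h (median log2 difference 0.09), where 6.35% of all genes were called, so that 0 is near the background. In WLc 5 were called higher (median 0.88), where 13.9% of all genes were, a count that was 3 with log2(value + 5), with scaling to the column total and with quantile normalization. ARC5, a dynamin-like protein that constricts the outer plastid envelope, had 113 in WLc, 40.9 in R1h and 34.4 in D. FTSZ1-1, a subunit of the inner division ring, had 463 in WLc, 192 in R1h and 165 in D, and PDV2, an envelope protein that recruits ARC5, had 115 in WLc, 57.6 in R1h and 44.1 in D.

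By the distance between the pair of log2 differences from D, over 3 group means only, GLK1 and GNC had more genes close to them than GLK2 and CGA1. Few genes had a larger R1h difference than GLK2 and CGA1 (69 and 8), and more had one than GLK1 and GNC (1714 and 319). Neighbour counts are therefore not independent of the sizes given above. Within a distance of 0.25, among genes with a highest level of at least 50, there were 59 genes for GLK1, 11 for GNC, 0 for GLK2 and 0 for CGA1. With log2(value + 5) these counts were 68, 12, 2 and 0, and of the 3 nearest genes 2 were the same for GLK1, GLK2 and GNC and 1, TZP, for CGA1, so the genes named for CGA1 depend on the pseudocount. The nearest to GLK1 were PME5, a pectin methylesterase (distance 0.039), IMK2, a receptor-like kinase (0.053), and AT2G43560 (0.068). The nearest to GNC were AT3G04140 (0.025), AT5G02970 (0.13) and HAI1, a phosphatase of abscisic acid signalling (0.14). The nearest to GLK2 was SPA3 (0.29), a partner of the repressor COP1, with 416 in WLc, 557 in R1h and 63.3 in D, followed by SNZ, an AP2-type factor (0.39), and AT4G24700 (0.43). The nearest to CGA1 were AT5G42760 (0.52), which was listed at 0 in D, the thionin gene THI2.2 (0.72), and TZP (0.82), a zinc knuckle protein of light signalling with 435 in WLc, 271 in R1h and 6.52 in D.

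Root markers and reference genes give a measure of what else differed. The summed level of 11 root markers was 1612 in WLc, 3533 in R1h and 4387 in D, most of it from CASP1 (952 in WLc, 2852 in R1h and 3699 in D). Of the 10 tested, 2 were called higher and 1, CASP1, lower in WLc, where 13.9% and 10.7% of all genes were. Their median log2 difference from D was 0.27 in WLc, with 6 above 0, and -0.12 in R1h, with 4 above 0. The sum thus followed CASP1 and not the list as a whole. The 9 reference genes had log2 differences from D between -1.08 and -0.05 in WLc and between -0.19 and 0.52 in R1h. GLK1 in R1h, at 0.55, had a counting interval of 0.34 to 0.76 on the log2 scale that covers the highest of them in R1h. GNC in WLc, at 0.27, had an interval of 0.06 to 0.48, which lies above the highest of them in WLc (-0.05). All 9 reference genes lay below D in WLc, while the median over all genes tested was 0.02. Neither interval includes variation among libraries. Between WLc and R1h the 9 reference genes had log2 differences from -0.90 to -0.23, while the median over all genes tested was 0.03. In that comparison GNC (-1.26) lay below all 9, and GLK1 (1.61), GLK2 (-0.11) and CGA1 (-0.11) lay above them. The part of tissue make-up in the differences of the 4 genes was not tested.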

How the data were processed

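Libraries from 9 wild-type samples (3 per group) were made by a 3′-end RNA-seq protocol. The authors used Bowtie to align 50-base reads, with no mismatch, to TAIR9 representative transcripts, counted unique reads in the last 500 bases of the coding strand, and adjusted them with edgeR. For both tools the version was not given in the sources used here. Values were deposited as a signal in pseudo-counts, 1 column per group, read as the authors' mean over 3 libraries because the lowest values above 0 lie on 3 levels per column. Groups were taken from the sample titles. The 4 genes and all lists were chosen with earlier results of these data known.

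limma on values per library, the planned test, could not be run on group means. Instead, log2(value + 1) differences, a 2-fold size rule over the 17299 genes that reached 10 in any group, and 95% counting intervals were computed. Python 3.11.15, scipy 1.17.1 and pandas 2.3.3 were used. The functions were also run on simulated reads with counting error only, which cannot check the calls against variation among libraries. Values below 1e-06 were read as 0. Genes other than the 4 were named by a fixed rule: all regulators, partners and LLM-domain genes could be named, up to 4 called members of each other list, and the 3 nearest genes by pattern. GUN4, CHLM, LHCB4.3, MYBC1 and APRR2 fall outside it and were chosen after their values were seen. Symbols, transcripts and upstream sequences come from RefSeq TAIR10.1, matched by locus code. No coordinates from the authors' files were used. Other pseudocounts, scalings, filters and an interval-based call were tried.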

Additional observations from a re-analysis of the deposited data

How the results depend on the processing

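No paired analysis was possible because the table holds 1 mean per group, and for the same reason leaving out single replicates was not run. The 2-fold calls of GLK1, GLK2, GNC and CGA1 in all 3 comparisons were the same with log2(value + 0.5), log2(value + 5), scaling to the column total, quantile normalization and median-of-ratios scaling, and their counts also with no filter, a minimum of 50 and the interval-based call. The difference of CGA1 from D ranged from 5.24 to 6.12 in R1h and from 5.13 to 6.01 in WLc. That of GLK2 between WLc and R1h moved to 0.028 under quantile normalization. Scaling to the column total moved the median over all genes in WLc against D to -0.10, against 0.02 as deposited.

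Counts over all genes depended on the minimum and on counting error. A minimum of 50 left 281 of 426 genes lower in R1h against D and 1355 of 2077 higher in WLc against R1h, and the interval-based call left 428 of 673 higher and 234 lower in R1h against D. Among lists, plastid division genes higher in WLc against D numbered 3 in place of 5 under 4 settings (the interval-based call among them), and 2 in place of 4 in WLc against R1h with that call. With scaling to the column total 1 GLK partner gene was lower in WLc against D, and with the interval-based call 1 in place of 2 in WLc against R1h. A minimum of 50 left 0 of the GARP genes higher in R1h. Root markers called higher, 1 in R1h against D and 2 in each WLc comparison, numbered 0 or 1 under several settings, and those lower in WLc against R1h numbered 1 in place of 2 with the interval-based call, and with quantile normalization 2 reference genes were lower in WLc against D (1 as deposited) and 2 against R1h (0 as deposited). The cause was not tested. Depth limits CGA1 most, since its dark level rests on about 14 reads.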

Other observations

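Of 10 other genes of the GARP family, to which GLK1 and GLK2 belong, 4 were called lower and none higher in WLc against D. There, 10.7% of all genes were called lower and 13.9% higher. In R1h 1 was called higher and none lower, where 3.89% and 2.46% of all genes were. The remaining 6 were under 2-fold in WLc, and the median log2 difference of the list was -0.04, with 5 of the 10 above 0. LUX and BOA, related factors of the evening clock, had 123 and 141 pseudo-counts in WLc, 285 and 442 in R1h, and 337 and 522 in D. MYBC1, a regulator of freezing tolerance, had 319 in WLc against 673 in D (log2 difference -1.07). KAN3, a KANADI factor of organ polarity, had 6.73 in WLc against 32.9 in D (-2.13). Its relative KAN2 was the one called higher in R1h, with 35.6 against 12.1 in D (1.49), a call that rests on few reads (counting interval of the ratio 2.03 to 4.49). APRR2, a GARP gene close to GLK1 and GLK2 in sequence, had 473 in WLc and 551 in R1h, with log2 differences from D of 0.65 and 0.87, under 2-fold in both groups.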
